A study of Mus musculus with 8 samples.

Results

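The genes described are 10 immediate early genes: Fos, Fosb, Fosl1, Fosl2, Jun, Junb and Atf3, whose proteins are basic leucine zipper factors of the AP-1 group, and Egr1, Myc and Nr4a1. They were chosen by name, as the probe sets annotated with exactly 1 of these symbols, and all 10 were found among the 19938 genes measured, each with 1 probe set. Hearts came from 9-week-old mice on a C57Bl6 background, and RNA from each animal was hybridised to 1 Affymetrix mouse gene array. The 4 groups of 2 arrays were homozygous Gata4 S105A mutants with PE (arrays 7 and 8), homozygous Gata4 S105A mutants without it (arrays 5 and 6), wild type (WT) mice with PE (arrays 3 and 4) and WT mice without it (arrays 1 and 2). S105A puts alanine in place of a serine in GATA4, a factor that binds GATA sites in DNA and controls cardiac genes. PE, which the labels spell out as pseudoephedrine, is an adrenergic stimulus. Subcutaneous osmotic pumps delivered 100 mg/kg/day of it over 5 days. The titles call the controls untreated and the treatment protocol names saline. The titles name the whole heart and the tissue field the ventricle.

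Immediate early genes are transcribed soon after a cell meets a growth factor, a hormone or stretch, without needing new protein synthesis, and many of their messages are short-lived. Growth signals that run through kinase cascades and calcium switch them on by way of factors such as SRF, the ternary complex factors and CREB, which are already present. FOS proteins pair with JUN proteins to form AP-1, which binds DNA and sets the later part of the response. In heart muscle the class is known for its rapid induction by adrenergic agonists and pressure load, whereas the hearts measured here were taken after 5 days of infusion.

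The first component over all genes held 69.5% of the variance, and WT PE array 3 (53.3) and S105A PE array 7 (25.1) lay apart from WT PE array 4 (-0.41) and S105A PE array 8 (-5.00), and from the untreated arrays (-20.8 to -16.1). The main PE differences are therefore also given without arrays 3 and 7. The defining genes of cardiomyocytes were strongly read in every array, with a mean of 6 markers between 13.35 and 13.58 in PE arrays and between 13.58 and 13.61 in untreated arrays. Tests were made with limma on log2 values over all 8 arrays, with Benjamini-Hochberg adjustment over 19938 genes and a threshold of 0.05. With 2 arrays a group the number of arrays limits the precision, and values of different probe sets are not compared with each other.

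Atf3, Myc, Nr4a1 and Egr1 lay 1.50-fold to 1.65-fold higher with PE, averaged over the genotypes, while Fosb and Jun had small negative differences and the other members small positive ones. None of the 10 passed the adjusted threshold in limma, where 0.00502% of all genes passed, and those 4 were past an unadjusted p of 0.05 in the upward direction, where the share of all genes was 9.31%. The median difference of the members was 0.17, beside -0.02 over all genes. Fosl1, Atf3, Myc and Nr4a1 had all 4 PE arrays above all 4 untreated arrays, which held for 6.7% of all genes. For Fosl1 the difference was small (0.14, and 0.094 without arrays 3 and 7). Its level was also low, among the lowest 40% of genes.

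**Figure D1:**
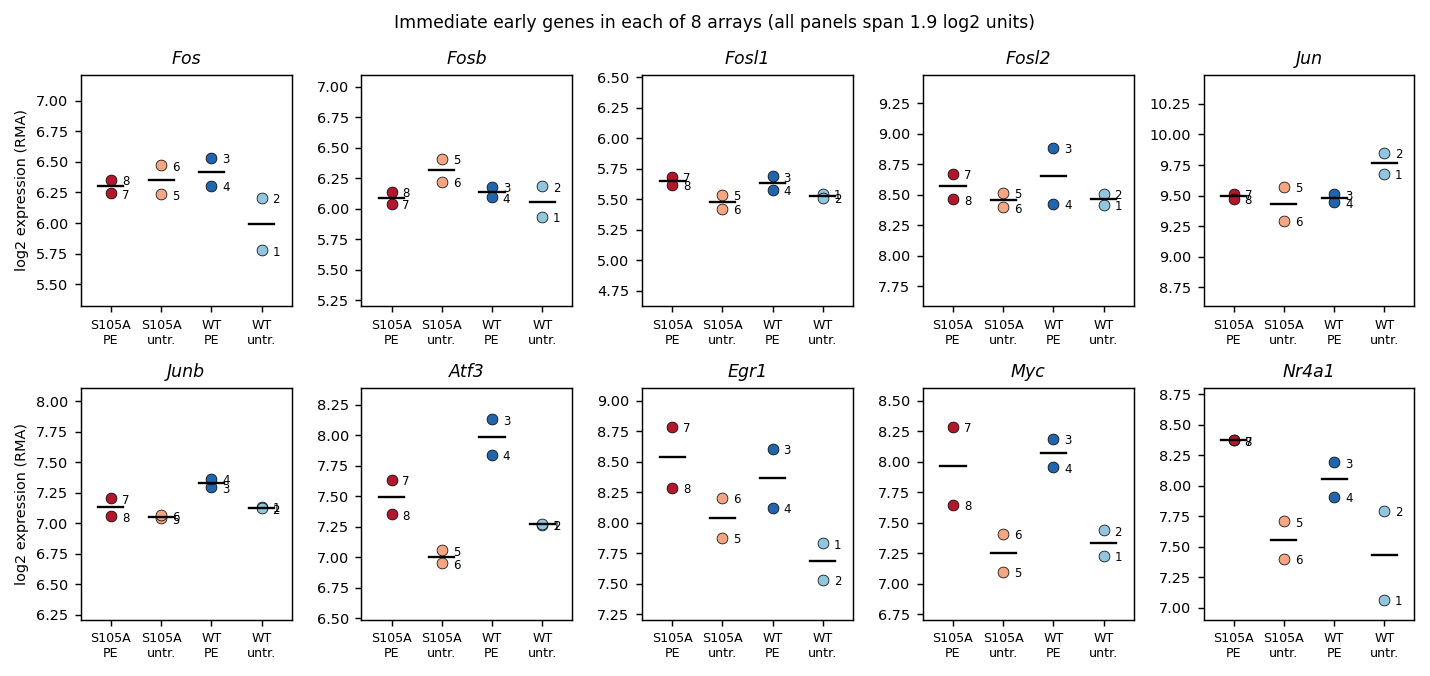
Log2 expression (vertical axis) of the 10 immediate early genes in each group, with 1 point per array labelled by its number and a bar at the mean of the 2 arrays. The PE arrays of Atf3, Myc and Nr4a1 lie above the untreated arrays, as do those of Fosl1 by a small difference. Egr1 overlaps in 1 pair of arrays (8.12 in array 4, 8.20 in array 6), and the Fos and Jun panels show no such order.

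Atf3 encodes a stress-responsive leucine zipper factor that pairs with JUN proteins and often represses transcription. It read 7.64 and 7.35 in S105A hearts with PE, against 7.06 and 6.95 in untreated S105A hearts. In WT hearts it read 8.13 and 7.84 with PE, against 7.27 and 7.27 untreated. The PE arrays lay above the untreated arrays within each genotype, and the WT PE pair was the highest of the 4. The PE difference was 0.49 in S105A (SE 0.13, limma adjusted p = 0.765) and 0.71 in WT (SE 0.13, adjusted p = 0.419). Averaged over the genotypes it was 0.60 (SE 0.10, 95% interval 0.38 to 0.83, 1.52-fold, adjusted p = 0.275). Atf3 ranked at 31 of 19938 genes by p in that comparison, the best rank among the 10. Without arrays 3 and 7 the averaged difference was 0.46 (adjusted p = 0.0524).

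Myc encodes a basic helix-loop-helix factor that binds DNA with MAX and promotes growth and ribosome production. Its values were 8.29 and 7.65 in S105A hearts with PE, against 7.10 and 7.41 in untreated S105A hearts. In WT hearts they were 8.19 and 7.95 with PE, against 7.23 and 7.44 untreated. Every PE array lay above every untreated array, with array 8 nearest to the untreated ones. The difference was 0.71 in S105A (SE 0.22, limma adjusted p = 0.765), 0.74 in WT (SE 0.22, adjusted p = 0.419) and 0.73 averaged over both (SE 0.16, 1.65-fold, adjusted p = 0.275). Without arrays 3 and 7 it was 0.40 in S105A and 0.51 averaged (adjusted p = 0.145).

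Nr4a1 encodes an orphan nuclear receptor that is itself an immediate early product. S105A hearts with PE read 8.37 and 8.37, against 7.71 and 7.40 in untreated S105A hearts. WT hearts with PE read 8.19 and 7.91, against 7.06 and 7.80 untreated. Arrays 7 and 8 were the highest of all 8 and nearly equal, whereas the WT untreated arrays lay 0.73 apart, with array 1 the low one. The difference was 0.82 in S105A (SE 0.24, limma adjusted p = 0.765), 0.62 in WT (SE 0.24, adjusted p = 0.419) and 0.72 averaged (SE 0.17, 1.65-fold, adjusted p = 0.275). The WT difference rested on that pair, at 0.26 without array 1 and 0.99 without array 2. The average was 0.65 with arrays 3 and 7 left out (adjusted p = 0.302).

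Egr1 encodes a zinc-finger factor that binds GC-rich promoter sites. It read 8.79 and 8.29 in S105A hearts with PE, against 7.88 and 8.20 in untreated S105A hearts. The WT values were 8.61 and 8.12 with PE, against 7.83 and 7.54 untreated. Within each genotype the PE arrays lay above the untreated arrays, but array 4 lay below array 6. The differences were 0.495 in S105A (SE 0.24, limma adjusted p = 0.765), 0.68 in WT (SE 0.24, adjusted p = 0.419) and 0.59 averaged (SE 0.17, 1.50-fold, adjusted p = 0.275). The S105A difference was 0.25 without array 7 and 0.74 without array 8, and the WT difference was 0.44 without array 3 and 0.92 without array 4. With arrays 3 and 7 both left out the average was 0.34 (adjusted p = 0.376). Fosl1, Atf3, Egr1, Myc and Nr4a1 were thus 5 of 10 members whose PE arrays lay above the untreated arrays within both genotypes, beside 9.74% of all genes.

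The FOS members had no common direction. Fos, the founding partner of JUN, read 6.24 and 6.35 in S105A hearts with PE, against 6.23 and 6.47 in untreated S105A hearts. In WT hearts it read 6.54 and 6.31 with PE, against 5.78 and 6.21 untreated. The S105A groups overlapped and the WT groups did not, with array 1 the lowest of all 8. Its difference was -0.06 in S105A (SE 0.17, limma adjusted p = 0.932) and 0.43 in WT (SE 0.17, adjusted p = 0.419). The WT value was 0.21 without array 1 and 0.65 without array 2. The 2 effects differed by -0.48 (S105A minus WT, SE 0.24, 95% interval -1.05 to 0.08, adjusted p = 1.00), so a difference between the genotypes was not shown, and that gap was -0.27 without array 1 and -0.70 without array 2.

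Fosb, a close relative with a strong activation domain, read 6.04 and 6.14 in S105A hearts with PE, against 6.41 and 6.22 in untreated S105A hearts. WT hearts read 6.18 and 6.09 with PE, against 5.93 and 6.18 untreated. The PE arrays were the lower pair in S105A and overlapped in WT, with differences of -0.23 (SE 0.12, limma adjusted p = 0.765) and 0.08 (SE 0.12, adjusted p = 0.788). Fosl1 and Fosl2 encode FRA-1 and FRA-2, FOS relatives that lack a strong activation domain. Fosl1 lay between 5.58 and 5.69 in the 4 PE arrays, against 5.42 to 5.54 in the 4 untreated arrays, a separation of small size (0.14, SE 0.06, limma adjusted p = 0.307). Fosl2 spanned 8.43 to 8.89 in PE arrays, against 8.40 to 8.52 in untreated arrays, and array 3 alone stood well above the rest. Its averaged difference of 0.15 (SE 0.11, adjusted p = 0.499) was -0.02 without arrays 3 and 7.

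Jun and Junb encode the partners of the FOS proteins, JUNB being the weaker activator. Jun read 9.51 and 9.47 in S105A hearts with PE, against 9.57 and 9.29 in untreated S105A hearts. In WT hearts it read 9.51 and 9.44 with PE, against 9.68 and 9.85 untreated. The WT untreated pair was the highest, and the other 3 groups overlapped. Its PE difference was 0.06 in S105A (SE 0.12, limma adjusted p = 0.891) and -0.29 in WT (SE 0.12, adjusted p = 0.419), and these 2 effects differed by 0.35 (SE 0.16, 95% interval -0.04 to 0.74, adjusted p = 1.00). Junb lay between 7.06 and 7.37 in PE arrays, against 7.04 to 7.13 in untreated arrays, with the WT PE pair on top (7.30 and 7.37). The Junb difference was 0.08 in S105A (SE 0.08) and 0.20 in WT (SE 0.08, adjusted p = 0.419).

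**Figure D2:**
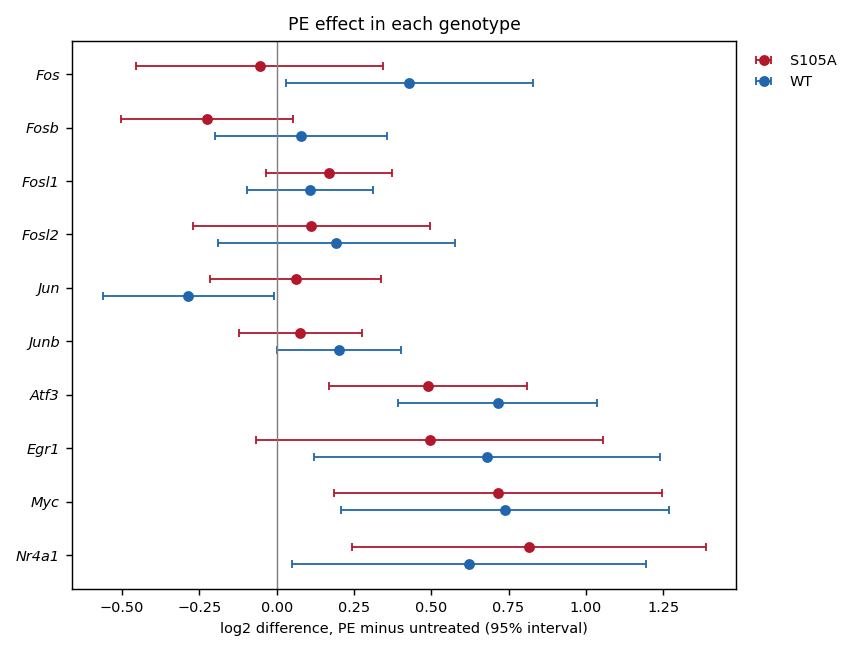
PE minus untreated on the log2 scale (horizontal axis) for each of the 10 genes in S105A hearts and WT hearts, with 95% intervals from limma. Atf3, Myc, Nr4a1 and Egr1 have differences between 0.49 and 0.82 in both genotypes, whereas Fos, Fosb and Jun differ in sign between them, with intervals of the 2 genotypes that overlap.

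By genotype, 3 members were past an unadjusted p of 0.05 in the upward direction in S105A (Atf3, Myc and Nr4a1), beside 3.09% of all genes. In WT the number was 6 upward (Fos, Junb, Atf3, Egr1, Myc and Nr4a1), beside 5.99% of all genes, and 1 downward (Jun), beside 5.76%. At the adjusted threshold limma called 0 members in S105A (0% of all genes) and 0 in WT (0.00502%). Taken over both directions together, the WT count at the unadjusted p was 7, and the WT counts that follow are of this kind. The WT count rests on single arrays: it was 2 without array 3, 3 without array 1, and 4 without arrays 3 and 7. With array 4 left out, which leaves array 3 as the lone WT PE array, Atf3, Egr1, Myc and Nr4a1 passed the adjusted threshold in the averaged PE effect (limma adjusted p = 0.00646, 0.0200, 0.0194 and 0.0233), in a setting where 4137 of 19938 genes passed. For the difference in PE effect between genotypes 0 members passed the adjusted threshold in limma (0% of all genes) and 0 had an unadjusted p under 0.05 (2.42% of all genes).

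Start regions of 7 of the 10 genes were read from RefSeq's table for mouse assembly GRCm38.p6, and 4 are shown because they set genes that were high with PE (Atf3 and Nr4a1) beside genes whose PE and untreated arrays overlapped over both genotypes (Fos and Jun). Each line gives the 250 bases before the annotated start, 5′ to 3′ on the gene's strand, and capitals mark the motif matches named below. Atf3 lies on the minus strand (chr1:191183334-191183583), Nr4a1 on the plus strand (chr15:101266596-101266845), Fos on the plus strand (chr12:85473640-85473889) and Jun on the minus strand (chr4:95052223-95052472).
Atf3: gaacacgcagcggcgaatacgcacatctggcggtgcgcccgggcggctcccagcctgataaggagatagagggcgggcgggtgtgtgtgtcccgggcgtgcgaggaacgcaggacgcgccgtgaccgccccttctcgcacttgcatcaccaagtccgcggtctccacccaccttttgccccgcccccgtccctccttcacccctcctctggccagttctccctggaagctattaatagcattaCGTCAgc
Nr4a1: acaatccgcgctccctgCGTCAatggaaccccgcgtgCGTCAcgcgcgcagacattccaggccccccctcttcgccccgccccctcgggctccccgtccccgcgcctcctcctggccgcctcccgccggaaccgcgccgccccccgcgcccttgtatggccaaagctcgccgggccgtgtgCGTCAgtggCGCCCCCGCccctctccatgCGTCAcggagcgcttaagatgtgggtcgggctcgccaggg
Fos: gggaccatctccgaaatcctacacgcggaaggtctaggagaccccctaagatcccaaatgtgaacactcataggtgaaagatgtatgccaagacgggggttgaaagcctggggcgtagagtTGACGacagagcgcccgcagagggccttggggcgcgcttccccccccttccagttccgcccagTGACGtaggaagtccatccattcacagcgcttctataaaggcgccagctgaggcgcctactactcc
Jun: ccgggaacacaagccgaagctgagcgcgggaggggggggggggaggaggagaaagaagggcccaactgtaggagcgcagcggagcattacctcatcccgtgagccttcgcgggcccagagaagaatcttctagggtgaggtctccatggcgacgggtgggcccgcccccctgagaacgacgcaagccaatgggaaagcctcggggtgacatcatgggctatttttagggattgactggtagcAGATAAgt
The motifs searched on both strands were the AP-1 site TGANTCA, the cyclic AMP response element TGACGTCA and its half-site TGACG, the CArG box bound by SRF, the EGR site GCGNGGGCG and a GATA site AGATAA; the half-site is contained in the full element. Nr4a1 held 4 half-sites (1 at -69 to -65) and 1 EGR site, and Fos held 2 half-sites (at -129 to -125 and -66 to -62). Atf3 held 1 half-site (at -7 to -3) and Jun held 1 AGATAA match (at -8 to -3). Other forms of the GATA site, such as the TGATAA and AGATAG in the Atf3 window, were not searched or marked. The search therefore does not show which genes lack a GATA site. A half-site was present in 17.8% of 32851 windows of the same length, an EGR site in 4.7% and AGATAA in 9.99%. No AP-1 site (6.75% of windows), full response element (1.55%) or CArG box (1.47%) was found in the 7 windows in these exact forms. Variant forms, such as TGACATCA in the Jun window and TTACGTCA in the Atf3 window, were not searched. Bases farther than 250 from the start were not searched either. Absence of a match therefore does not show that a gene lacks such a site. The marked matches are letters in a sequence and not bound sites. Half-sites were held by Atf3 and Nr4a1, and also by Fos, whose PE and untreated arrays overlapped. The Jun window held none.

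The genotype comparison asked whether the substitution in GATA4 shifted these genes. At the adjusted threshold limma called 0 members with PE, without PE or averaged, where the share of all genes was 0% with PE, 0% without PE and 0.00502% averaged. Atf3 had the lowest p among the members with PE and in the average, and Jun without PE. Atf3 was lower in S105A than in WT hearts with PE (7.64 and 7.35, against 8.13 and 7.84) and without PE (7.06 and 6.95, against 7.27 and 7.27). Neither pair of groups overlapped, although S105A with PE still lay above WT without it. The Atf3 difference, S105A minus WT, was -0.49 with PE (SE 0.13, 0.712-fold, limma adjusted p = 0.989), -0.26 without PE (SE 0.13, adjusted p = 0.968) and -0.38 averaged (SE 0.10, 95% interval -0.60 to -0.15, adjusted p = 0.927). It stood at rank 114 by p in the average, and ranged over -0.45 to -0.30 as single arrays were left out. At an unadjusted p of 0.05 it was the 1 member lower in the average, beside 2.69% of all genes.

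Junb was the other member whose S105A arrays lay below the WT arrays in both treatments, a pattern that 3.27% of all genes showed. With PE it read 7.20 and 7.06 in S105A hearts, against 7.30 and 7.37 in WT hearts. Without PE it read 7.04 and 7.07 in S105A hearts, against 7.13 and 7.12 in WT hearts. These gaps were small, with differences of -0.20 with PE (SE 0.08, limma adjusted p = 0.989) and -0.08 without (SE 0.08, adjusted p = 0.998). Atf3 and Junb were the 2 members past an unadjusted p of 0.05 with PE, in the downward direction, where the share of all genes was 1.43%, and 0 were past it upward, where the share was 1.25%.

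Without PE, Jun was lower in S105A hearts (9.57 and 9.29) than in WT hearts (9.68 and 9.85), with a difference of -0.33 (SE 0.12, unadjusted p = 0.0258 in limma, adjusted p = 0.962). It was the 1 member past that unadjusted threshold, beside 2.53% of all genes in the downward direction, and 0 members were past it upward, beside 2.43%. Fos, Fosb and Egr1 pointed the other way, with untreated S105A hearts above untreated WT hearts in every array and differences of 0.36 (SE 0.17), 0.26 (SE 0.12) and 0.36 (SE 0.24), of which 0 passed. As single arrays were left out, these differences ranged over 0.15 to 0.58 for Fos, 0.13 to 0.38 for Fosb and 0.19 to 0.52 for Egr1, and that of Jun over -0.47 to -0.19. Such a separation upward was found for 21.8% of all genes. With PE the same 3 genes had differences of -0.12, -0.05 and 0.17. Nr4a1 was 0.32 higher in S105A hearts with PE (SE 0.24, limma adjusted p = 0.989), and both S105A arrays lay above both WT arrays, as for 10.5% of all genes. Myc differed by -0.10 with PE (95% interval -0.63 to 0.43) and by -0.08 without it (95% interval -0.61 to 0.45).

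**Figure D3:**
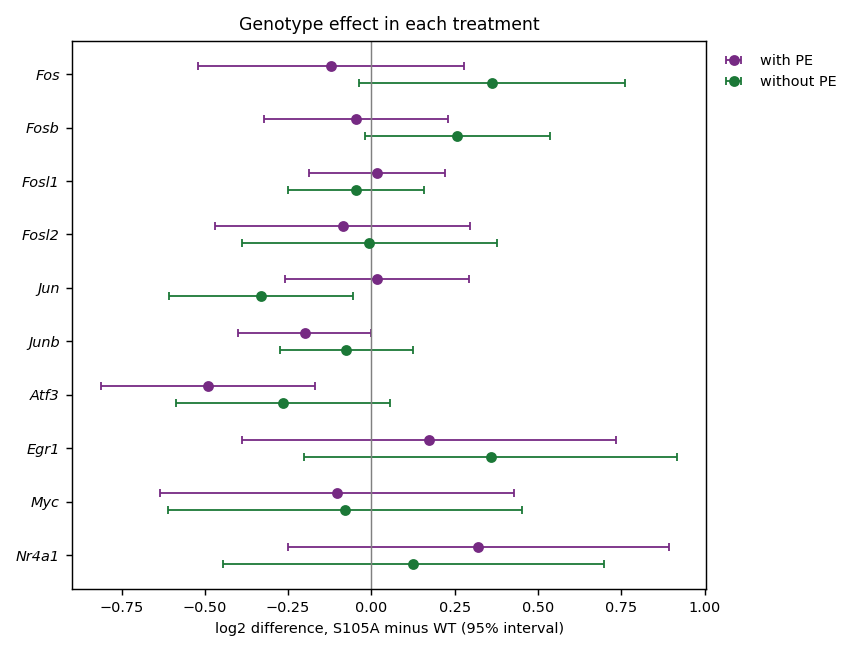
S105A minus WT on the log2 scale (horizontal axis) for each of the 10 genes with PE and without PE, with 95% intervals from limma. Atf3 lies at -0.49 with PE and -0.26 without, while Fos lies at -0.12 with PE and 0.36 without.

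The order of the 4 group means also separated the members. Atf3 was ordered WT PE (7.99), S105A PE (7.50), WT untreated (7.27) and S105A untreated (7.01), and all 3 steps exceeded its spread between arrays of a group (SD 0.15). Myc had the PE groups on top (8.07 in WT and 7.97 in S105A, against 7.33 in untreated WT and 7.25 in untreated S105A), and only the step between PE and untreated hearts exceeded its spread (SD 0.27). Nr4a1 and Egr1 shared another order, with S105A PE (8.37 and 8.54) above WT PE (8.05 and 8.36), S105A untreated (7.55 and 8.04) and WT untreated (7.43 and 7.68). Not every step exceeded the spread. For Nr4a1 the step between the untreated groups (0.13) did not (SD 0.30). For Egr1 the step between the PE groups (0.17) did not (SD 0.29). For Fosl2 no step exceeded its spread (SD 0.19). The WT PE arrays differed from each other most in Egr1 (0.49, array 3 minus array 4), and the S105A PE arrays most in Myc (0.64, array 7 minus array 8).

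Other immediate early genes formed a second list of 42, all measured. In the averaged PE effect 0 passed the adjusted threshold in limma, 12 were past an unadjusted p of 0.05 upward and 1 downward, beside 9.31% and 7.44% of all genes, and the median was 0.13. Ccn2, a secreted matrix-associated growth regulator that SRF and YAP control, had the lowest p. Ccn2 read 12.44 and 11.26 in S105A hearts with PE, against 10.17 and 10.22 in untreated S105A hearts, and 13.17 and 11.66 in WT hearts with PE, against 9.85 and 10.49 untreated. No PE array overlapped the untreated ones, and arrays 3 and 7 were the highest (difference 1.95, SE 0.39, limma adjusted p = 0.275; 1.27 without arrays 3 and 7).

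Its relative Ccn1 differed by 0.86 (SE 0.25), the prostaglandin synthase gene Ptgs2 by 0.91 (SE 0.21), the stress gene Gadd45b by 0.66 (SE 0.17), the cytokine feedback gene Socs3 by 0.37 (SE 0.08) and the clock-linked repressor gene Bhlhe40 by 0.29 (SE 0.08). These 5 genes, named for their low p in this comparison, also had all PE arrays above all untreated ones. Of the 42 listed genes 10 had that order, beside 6.7% of all genes. The adjusted p of the 5 genes was 0.275 to 0.277 in limma. The relatives of the members were uneven. Egr2 differed by 0.84 (SE 0.28) and Nr4a2 by 0.43 (SE 0.16), whereas Egr3 differed by 0.14 (SE 0.12) and Nr4a3 by 0.11 (SE 0.12). Klf4 was the 1 gene of the list past the unadjusted threshold in the downward direction (-0.25, SE 0.10). With arrays 3 and 7 left out, the differences were 0.46 for Ccn1, 0.57 for Ptgs2 and -0.13 for Klf4. Among the relatives they were 0.34 for Egr2, -0.034 for Egr3, 0.15 for Nr4a2 and 0.25 for Nr4a3. Nr4a2 thus no longer lay above Nr4a3. Egr2, Nr4a2, Egr3, Nr4a3 and Klf4 were chosen after their values were seen.

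Of 10 other AP-1 and small leucine zipper partners, 0 were past an unadjusted p of 0.05 in limma, and the median was -0.06. Mafk, a small MAF protein gene, differed by 0.22 (SE 0.10) and Atf2 by -0.07 (SE 0.06). Batf, Batf2, Batf3 and Mafg lay between -0.09 and -0.07. The upstream list had 14 of 17 genes measured, with 1 upward (Mrtfb, an SRF coactivator, 0.15, SE 0.06) and 4 downward at an unadjusted p of 0.05, beside 9.31% and 7.44% of all genes, and 0 past the adjusted threshold. The 4 were Rps6ka5, a kinase acting on CREB and histone H3 (-0.43, SE 0.11), the stress kinases Mapk8 (-0.31, SE 0.10) and Mapk14 (-0.21, SE 0.08), and Creb1 (-0.14, SE 0.06). Map2k1, a kinase of the growth factor cascade, differed by 0.28 (SE 0.12). Without arrays 3 and 7 the differences were 0.18 for Mrtfb, -0.26 for Rps6ka5, -0.16 for Mapk8, -0.099 for Mapk14, 0.085 for Map2k1 and 0.086 for Mafk, and 0 upstream genes were past that p upward.

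Genes known as AP-1 targets, 14 of 16 measured, had a median difference of 0.47, beside -0.02 over all genes. In limma 7 were past an unadjusted p of 0.05 upward and 0 downward, beside 9.31% and 7.44% of all genes. At the adjusted threshold 0 passed. Leaving out array 3 gave a median of 0.32, and leaving out both 3 and 7 gave 0.26, where 7 were again past that p upward. Timp1, an inhibitor of matrix metalloproteinases, read 10.96 and 9.15 in S105A hearts with PE, against 6.76 and 6.98 in untreated S105A hearts. It read 11.55 and 10.71 in WT hearts with PE, against 6.81 and 7.40 untreated, and the averaged difference was 3.60 (SE 0.41, limma adjusted p = 0.186). Lox, the collagen crosslinking enzyme gene, differed by 3.40 (SE 0.64, adjusted p = 0.275). The adhesion receptor gene Cd44 differed by 0.77 (SE 0.18), the intermediate filament gene Vim by 0.82 (SE 0.23), the heme oxygenase gene Hmox1 by 0.80 (SE 0.29) and the cytokine gene Il6 by 0.44 (SE 0.11). Il6 had a low level (3.73 to 4.59 over the 8 arrays), and its difference was 0.16 in S105A and 0.71 in WT. The PE arrays lay above the untreated arrays for Timp1, Lox, Cd44 and Vim, and overlapped them for Il6 and Hmox1. Such a separation upward held for 6.7% of all genes, and these genes were named for their low p in the same comparison. When arrays 3 and 7 were left out, the differences were 2.94 for Timp1, 2.29 for Lox, 0.45 for Cd44, 0.42 for Vim, 0.31 for Hmox1 and 0.27 for Il6.

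Among genes that work with Myc, Max, its obligate partner, read 8.67 and 8.56 in S105A hearts with PE, against 8.85 and 8.77 in untreated S105A hearts, and 8.47 and 8.66 in WT hearts with PE, against 9.10 and 8.87 untreated. All PE arrays lay below all untreated arrays (-0.31, SE 0.08, limma adjusted p = 0.275), which held for 6.15% of all genes. It was the 1 of 10 Myc partners past an unadjusted p of 0.05. Mycn (-0.32, SE 0.14), Mxi1 (-0.17, SE 0.12), Mga (-0.12, SE 0.06), Mycl (-0.10, SE 0.06) and Mnt (0.12, SE 0.06) were not. Among 15 Myc target genes 3 were past that threshold upward: Odc1 of polyamine synthesis (0.41, SE 0.14), the nucleolar gene Npm1 (0.27, SE 0.11) and the cell cycle kinase gene Cdk4 (0.21, SE 0.09). That count stands beside 9.31% of all genes and was 1 without arrays 3 and 7, with differences of 0.20 for Odc1, 0.16 for Npm1 and 0.092 for Cdk4. Their median was 0.02, with Srm at 0.15, Bop1 at 0.12 and Wdr43 at -0.09, and 0 passed the adjusted threshold.

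**Figure D4:**
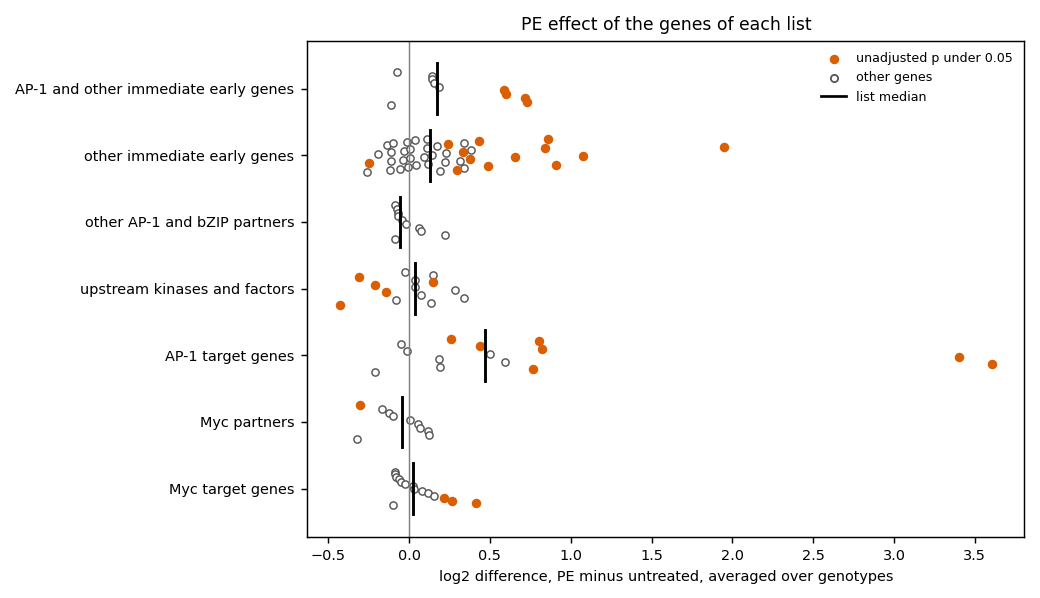
Averaged PE minus untreated difference on the log2 scale (horizontal axis) for each gene of the members and of 6 related lists (rows), with filled points for an unadjusted p under 0.05 in limma and a bar at the median. Atf3, Egr1, Myc and Nr4a1 stand apart from the other 6 members, and the AP-1 target list has the largest median of the 7 rows, at 0.47 (0.26 without arrays 3 and 7).

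The genes whose profile over the 8 arrays was most like the mean of the 10 members were Ccn2 (Pearson r = 0.991, Spearman rho = 0.976), Spag5 (r = 0.987), Lox (r = 0.984), Thbs3 (r = 0.983) and Ncf1 (r = 0.982), out of 3914 genes with at least the members' median range. Without arrays 3 and 7, the 2 farthest from the median of the members' mean, r lay between 0.946 and 0.979. The 8 arrays fall into PE and untreated groups, which these values share, so they are a description of these arrays. Among the members, Myc followed the members' mean, which includes it, most closely (r = 0.938), while Fosb (r = -0.07) and Jun (r = -0.24) did not follow it.

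Marker genes of some other cells differed with PE as well. The counts below are for the averaged PE effect, where 9.31% of all genes were past an unadjusted p of 0.05 upward and 7.44% downward in limma. Fibroblast markers averaged 10.14 to 11.30 in PE arrays, against 9.15 to 9.27 in untreated arrays, with 6 of 8 past an unadjusted p of 0.05 upward in limma. Macrophage markers averaged 8.69 to 9.85 in PE arrays, against 8.06 to 8.47 in untreated arrays, with 8 of 8 past it. Genes of cycling cells averaged 6.49 to 7.72 in PE arrays, against 5.72 to 6.00 in untreated arrays, with 3 of 4 past it. Endothelial markers averaged 9.74 to 10.18 in PE arrays, against 10.11 to 10.36 in untreated arrays, with 1 of 7 past it downward. Smooth muscle markers (8.43 to 9.29 in PE arrays, against 8.26 to 8.43 in untreated arrays) had 2 of 5 past it upward, atrial markers (7.77 to 8.23, against 7.35 to 7.63) 2 of 4 upward, and the 2 of 5 erythroid markers measured (6.45 to 7.17, against 7.44 to 7.99) 2 downward. Neutrophil markers (5.14 to 5.35 in PE arrays, against 5.29 to 6.21 in untreated arrays) and cardiomyocyte markers had 0 past it. In each of the fibroblast, macrophage and cycling cell lists arrays 3 and 7 were the highest, as they were for Egr1, Myc, Fosl1 and Fosl2. In heart tissue, more cells of a type and more RNA per cell cannot be told apart, and the part of these cells in the values of the 10 genes was not tested.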

How the data were processed

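The labels give 8 arrays of biotin-labelled heart RNA, 1 per animal. The authors' deposited values are log2 expression values made with RMA, per the submitters' processing notes, which equalises the arrays' distributions; the values span 2.63 to 14.45, as log2 RMA values do, and no probe set definition or genome build is stated for them here. Of 35557 rows, 21789 carried 1 symbol in the platform annotation, 1621 several and 12147 none; the probe set with the highest mean was kept, which left 19938 genes. The 4 groups come from the titles. Group means were fitted with limma 3.58.1 in R 4.3.3 on all 8 arrays (4 residual and 2.74 prior degrees of freedom), with two-sided p values adjusted over all genes, and the fit was tested on simulated data. Detection calls were not used, so low values have no known floor. Replicates are separate animals by their titles, and no array batch is given. Named genes were the 10 members, up to 6 genes per related list by p in the averaged PE effect, and the 5 genes most alike. The members, lists and alternatives were chosen with earlier results of these data known. Promoter sequences are from RefSeq, assembly GRCm38.p6. Figures used matplotlib 3.10.9.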

Additional observations from a re-analysis of the deposited data

How the results depend on the processing

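No paired analysis was possible because the individuals are numbered 1 to 8 with no number shared between groups. Array signal over background is unknown, and 2 arrays a group leave single arrays in control of the spread, so a group reduced to 1 array is assumed to vary like the others. No member passed the adjusted threshold in limma in any comparison under the filter, probe set, scaling, variance or 4-array alternatives, or without arrays 3 and 7. Both scalings kept the sign of all 10 averaged PE effects, and moved the median of all genes by at most 0.06. Leaving out each array in turn gave 0 to 2 adjusted member calls for PE in WT and 0 to 4 for PE averaged over genotypes, the upper values without array 4; the number of genes called in all was 0 to 1 for PE in S105A, 0 to 3541 for PE in WT, 0 to 4137 averaged, 0 to 7 for the difference in PE effect, 0 to 711 for genotype with PE, 0 to 3 without PE and 0 to 225 averaged. Member counts at an unadjusted p of 0.05 were 1 to 4 for PE in S105A (main 3), 2 to 6 for PE in WT (main 7), 0 to 2 for the difference in PE effect (main 0), 0 to 2 for genotype with PE (main 2), 1 to 3 without PE (main 1) and 1 to 2 averaged (main 1). The same alternatives gave 0 to 1 other AP-1 partners, 6 to 17 other immediate early genes, 0 to 2 upstream genes and 0 to 4 Myc targets past that p upward, 0 to 1 members with all PE arrays below the untreated ones, and a median difference in PE effect of -0.23 to 0.075. Without arrays 3 and 7 the genes called numbered 30 for PE in S105A, 58 for PE in WT, 137 averaged, 1 for the difference in PE effect, and 5, 4 and 22 for genotype with PE, without PE and averaged. Member counts there were 4 for PE in WT, 3 for genotype without PE and 2 averaged, with 0 upstream genes and 1 Myc target upward. The filter on low genes raised the member median to 0.53 for PE in WT and 0.39 averaged; it left 1 member for genotype with PE, 0 upstream genes and 1 Myc target. The fit of the 4 arrays compared gave 0 genes and 4 members for PE in WT, 1 member for genotype with PE, and 4 genes and 3 members without PE. Genotype without PE had 1 gene called with the mean of probe sets, median centring or the trended variance. Genotype with PE had 1 member past the unadjusted p with median centring or the trended variance, and genotype averaged had 2 after quantile normalization. Upstream genes past it upward were 0 with the mean of probe sets, quantile normalization, centring or trended variance, and Myc targets 1 with centring or trended variance. Beyond the loss of members to the filter, the cause of these changes and of the signs that turned was not tested. Fosl2 turned to -0.038 for PE in WT, -0.016 for PE averaged, 0.045 for the difference in PE effect, 0.038 for genotype with PE and 0.016 averaged without arrays 3 and 7, and to 0.035 for genotype without PE after quantile normalization; Fos and Fosb turned to 0.048 and 0.043 for genotype with PE without arrays 3 and 7, and Myc to 0.0018 for the difference in PE effect with centring. Leaving out 1 array gave, for PE in S105A, Fos -0.175 to 0.065 and Jun -0.079 to 0.20; for PE in WT, Fosb -0.046 to 0.20 and Fosl2 -0.038 to 0.42; for the difference, Fosl2 -0.31 to 0.15, Egr1 -0.43 to 0.063, Myc -0.34 to 0.29 and Nr4a1 -0.17 to 0.56; for genotype with PE, Fosb -0.094 to 0.0011, Fosl1 -0.041 to 0.072, Fosl2 -0.32 to 0.14, Jun -0.018 to 0.050, Egr1 -0.077 to 0.42 and Myc -0.42 to 0.21; for genotype without PE, Fosl1 -0.10 to 0.01, Fosl2 -0.065 to 0.053, Myc -0.24 to 0.076 and Nr4a1 -0.24 to 0.49; and averaged, Fosl1 -0.044 to 0.013, Fosl2 -0.16 to 0.069 and Myc -0.25 to 0.067.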

Other observations

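Several other immediate early genes were higher in S105A than in WT hearts with PE. Of the 42 listed, 6 were past an unadjusted p of 0.05 upward and 0 downward in limma, beside 1.25% of all genes upward, and 0 passed the adjusted threshold (adjusted p = 0.989 for each). They were Dusp1, a phosphatase that switches off MAP kinases, Zfp36, which destabilises messages of inflammatory genes, Klf2, Rhob, Per1 and Errfi1, an inhibitor of EGF receptor signalling, and they were chosen after their values were seen. Dusp1 read 10.30 and 10.32 in S105A hearts with PE, against 9.56 and 10.05 in WT hearts with PE. Rhob read 9.49 and 9.55 in S105A hearts with PE, against 8.71 and 9.21 in WT hearts with PE. With PE, the S105A arrays of each of these genes lay above the WT arrays, as for 10.5% of all genes. Array 3 was the lower WT PE array except in Errfi1. Dusp1 and Rhob had the same separation without PE, as for 21.8% of all genes, whereas Zfp36, Klf2 and Per1 overlapped there. Without PE, Errfi1 was lower in S105A hearts (8.84 and 8.81) than in WT hearts (9.15 and 9.78), and the 2 PE effects differed by 1.23 (S105A minus WT, SE 0.33, unadjusted p = 0.00817, limma adjusted p = 1.00). Without PE, 2 of the 42 genes were past an unadjusted p of 0.05 upward and 1 downward in limma, beside 2.43% and 2.53% of all genes. Arc, a neuronal immediate early gene, had the largest upward difference of the list there (0.85, S105A minus WT, SE 0.21, limma adjusted p = 0.962). It was also chosen after its values were seen, and its genotypes overlapped with PE.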
